A study of Drosophila melanogaster with 6 samples.

Results

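The autophagy and lysosome genes of the larval fly brain were taken as 30 genes chosen by name and matched by symbol to their rows in the gene table, which holds 14150 genes. They comprise 22 genes of the core autophagy machinery, the cargo receptor gene ref(2)P and 7 genes grouped here as lysosomal. The last group includes the fusion gene Rab7 and the transcription factor gene Mitf. Of the 30, 29 passed the expression filter and Atg8b did not. The RNA came from brains of Drosophila melanogaster larvae, all female and raised at 29 °C, which were taken 96 h after laying, in late L3, with 3 brains per library. CIN larvae carried worniu-gal4 with UAS-bub3-i, an RNAi transgene against Bub3 of the spindle assembly checkpoint, and ctrl larvae carried worniu-gal4 with UAS-gfp-i, an RNAi transgene against gfp, which flies lack. Both genotypes are written on a w background and share the driver, which acts in neuroblasts, the stem cells of the brain, while the libraries hold RNA of whole brains with neurons and glia. The genotypes also differ in the RNAi transgene they carry. Each genotype had 3 libraries, 1 in each of batches 4, 5 and 6, which were collected on different days.

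Autophagy wraps part of the cytoplasm in a membrane vesicle, the autophagosome, which fuses with the lysosome so that its content is digested. The Atg1 kinase complex starts the process, a class III phosphatidylinositol 3-kinase marks the membrane, Atg9 and Atg2 supply lipids, and a pair of ubiquitin-like conjugation systems fixes Atg8 to the growing membrane. Ref(2)P, the fly counterpart of p62, binds ubiquitinated protein and Atg8 and is itself degraded by autophagy. In flies, loss of Atg7 or Atg8a is known to let ubiquitinated protein build up in the brain. Much of the control of autophagy acts on the proteins, so mRNA levels describe the supply of components and not the rate of autophagy.

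The libraries held 24668180 to 26292208 counts, and levels are given as CPM, counts per 1000000 after scaling for composition (TMM). Bub3 measured 80.2, 96.5 and 91.5 CPM in CIN 4, 5 and 6, against 149, 123 and 144 CPM in ctrl 4, 5 and 6, so the groups did not overlap (edgeR, adjusted p = 0.333; DESeq2, adjusted p = 0.00364). The 10 brain markers were all detected and summed to between 1645 and 2324 CPM in CIN and between 1861 and 2056 CPM in ctrl. Among them the neuroblast genes mira, dpn, ase and wor had log2 fold changes of -0.71, -0.61, -0.57 and -0.32, with overlapping groups and edgeR adjusted p from 0.603 to 0.704 (unadjusted p = 0.0403 for mira). In batches 4, 5 and 6 CIN minus ctrl was -1.64, -0.35 and -0.23 for mira and -1.50, -0.31 and -0.03 for ase. It was -0.91, -1.12 and 0.17 for dpn and -0.80, -0.21 and -0.02 for wor. The neuronal genes elav, brp, nSyb and Syt1 had log2 fold changes of 0.24, 0.51, 0.04 and 0.10. In batch 4, elav and nSyb were lower in CIN, at -0.32 and -0.18. The part of these marker differences in the results that follow was not tested. Markers of neighbouring tissue varied between libraries. The 7 matched ring gland markers summed to 3699 CPM in CIN 4, 27.9 CPM in CIN 5 and 1167 CPM in CIN 6, against 34.3, 2659 and 1314 CPM in ctrl 4, 5 and 6. The 12 hemocyte markers summed to 1793, 495 and 517 CPM in CIN 4, 5 and 6, against 809, 1413 and 630 CPM in ctrl 4, 5 and 6. In ctrl 4 most of that sum came from Col4a1 at 403 CPM and vkg at 282 CPM. There Hml, eater, srp, He and NimC1 stood at 8.60, 4.74, 1.81, 1.69 and 0.92 CPM. Fat body markers summed to between 169 and 211 CPM in CIN and between 217 and 699 CPM in ctrl, salivary gland markers to between 2.57 and 19.4 CPM in CIN and between 21.6 and 84.6 CPM in ctrl, and muscle markers to between 112 and 245 CPM in CIN and between 86.7 and 153 CPM in ctrl. The fat body and salivary gland sums were lower in every CIN library than in any ctrl library. All 7 markers of each list had negative log2 fold changes, with medians of -1.90 and -1.97, and edgeR called 0 of them after adjustment. The part of these tissues in the results that follow was not tested. Bulk counts cannot tell fewer cells of a type from less RNA per cell.

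Per length of exon, cathD, Lamp1, Atg8a, CtsL1 and CtsB were the most abundant of the 30, while spin and Mitf of the lysosomal group ranked 9 and 22. The level per kilobase, CPM divided by the length of all annotated exons, was 303 ± 37.4 in CIN and 251 ± 17.3 in ctrl for cathD, the gene of an aspartic protease of the lysosome (SD, n = 3 each here and below). Lamp1, a membrane protein of the lysosome, followed with 212 ± 75.3 CPM per kb in CIN and 172 ± 14.9 in ctrl. Atg8a, the ubiquitin-like protein of the autophagosome membrane, had 165 ± 11.07 CPM per kb in CIN and 144 ± 8.93 in ctrl. CtsL1 and CtsB, genes of cysteine proteases, stood next. CtsL1 had 139 ± 33.7 CPM per kb in CIN and 135 ± 3.72 in ctrl, and CtsB had 119 ± 23.4 in CIN and 114 ± 13.4 in ctrl. In ctrl the libraries of Atg8a and CtsL1 overlapped in level, while those of Lamp1 lay above both. With the longest transcript as the length, Atg8a stood at 202 CPM per kb in ctrl, above Lamp1.

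The other core genes were lower. After Rab7, Atg3 and ref(2)P, with 77.3, 74.0 and 52.5 CPM per kb in ctrl, came spin with 41.6. From Atg18a at 24.4 to Atg18b at 7.72 CPM per kb in ctrl, the remaining genes other than Atg10 and Atg8b formed a gradual series of 19 genes, in which 13 of the 18 pairs of neighbours differed by less than the larger of their SDs. Mitf, the fly member of the TFEB family of lysosomal transcription factors, lay in that series with 11.8 ± 1.12 CPM per kb in CIN and 10.7 ± 1.44 in ctrl. Atg10 had 2.79 ± 0.486 CPM per kb in CIN and 3.48 ± 0.651 in ctrl. Atg8b, the second Atg8 gene of the fly, was barely detected, with 9, 8 and 15 counts in CIN 4, 5 and 6 and 12, 4 and 2 counts in ctrl 4, 5 and 6, too few for a test.

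**Figure D1:**
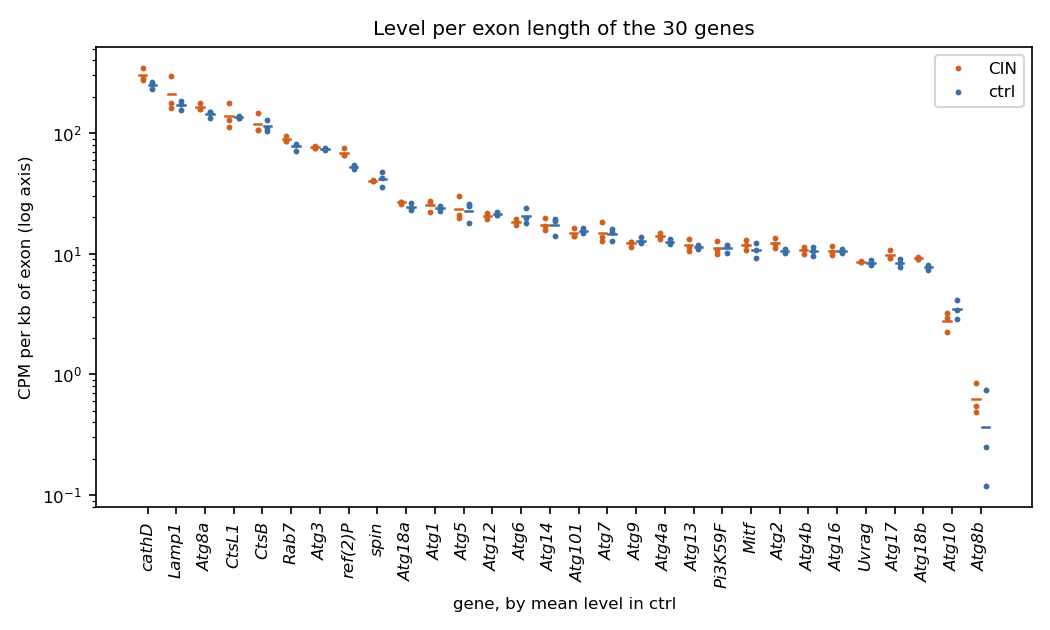
Level of each of the 30 genes in CPM per kilobase of exon on a log axis, with 1 point per library, CIN left of ctrl, and a line at each group's mean. The genes run from cathD, with a mean of 251 CPM per kb in ctrl, down to Atg8b, and the genotypes lie close together for most genes.

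The comparison of CIN with ctrl asked whether the supply of autophagy and lysosome transcripts differs in brains with Bub3 RNAi in neuroblasts. None of the 29 tested genes passed the quasi-likelihood test of edgeR, adjusted by Benjamini and Hochberg's method across 10074 genes, of which 5 (0.0496%) were called higher and 5 (0.0496%) lower, or 0 and 0 with the batch as a replicate block. At an unadjusted p under 0.05, 1 of the 29 was higher, ref(2)P, and 0 were lower, against 4.13% higher and 3.76% lower of all tested genes. DESeq2 called 0 of the 29 as well, against 0.516% of the tested genes higher and 0.546% lower. The log2 fold changes of the 29 ran from -0.32 to 0.38 with a median of 0.04, and 21 were positive and 8 negative. Over all tested genes the median was 0.0075 and 51.3% were positive. The 95% intervals of all 29 lay inside a 2-fold change in either direction, and those of 25 inside a 1.5-fold change.

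Without a call, 7 genes had all 3 CIN libraries above all 3 ctrl libraries, against 7.1% of all tested genes, and 0 had them all below, against 8.18%. They were Atg17, Atg2, Atg18b, Atg8a, ref(2)P, cathD and Rab7. With library totals in place of TMM there were 8, with Atg18a and Atg4a added and Atg17 left out, and the share of all tested genes was then 8.31%. The 7 genes belong to most of the roles, from the initiation complex to the lysosome, and their differences were small: the fitted folds ran from 1.14 for Atg8a to 1.30 for ref(2)P.

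**Figure D2:**
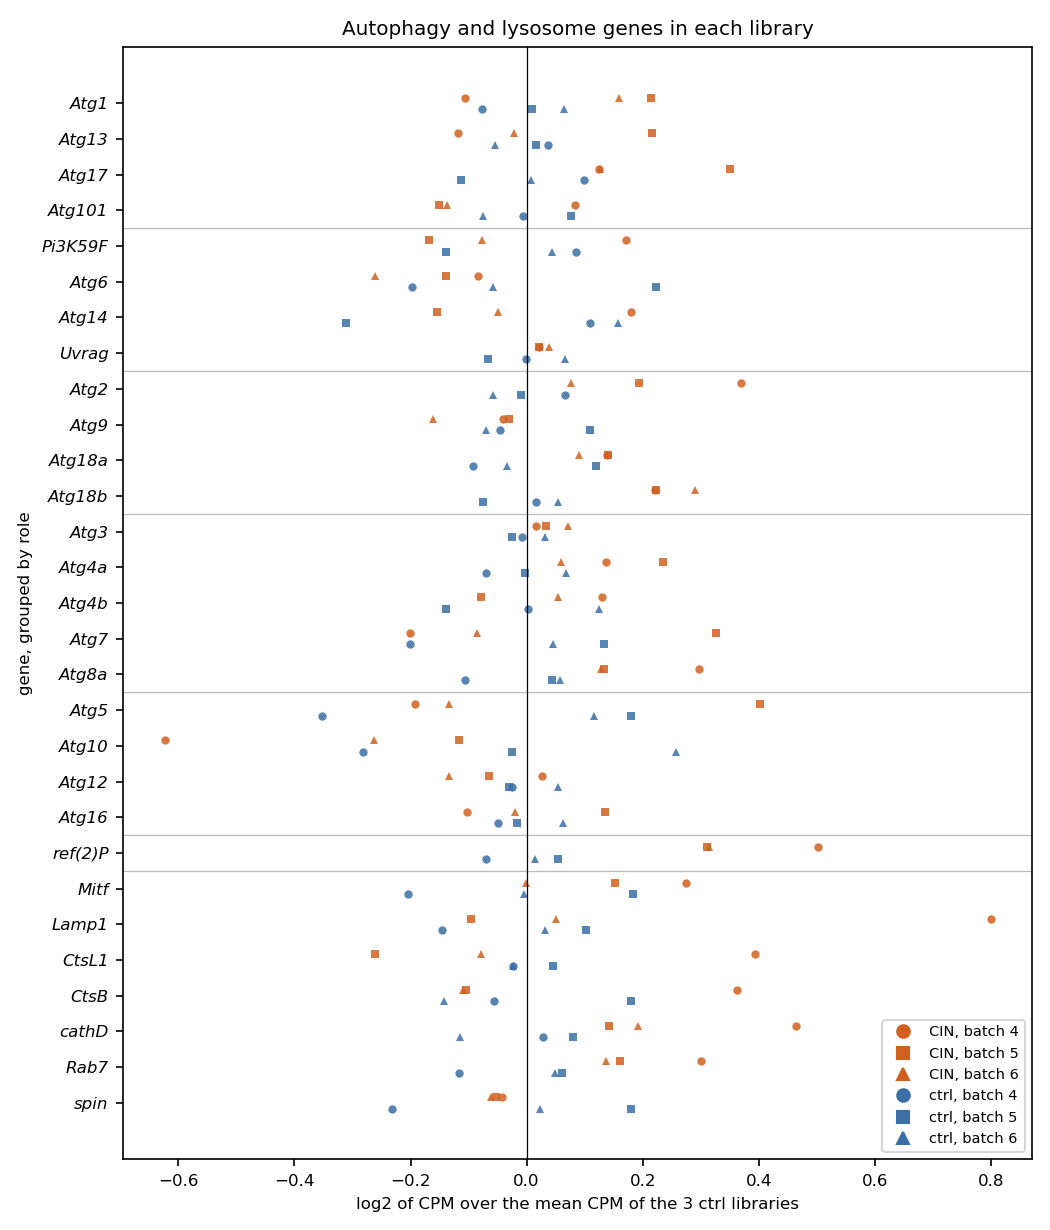
Each row is a gene and each point a library, placed at the log2 of its CPM over the mean CPM of the 3 ctrl libraries; CIN points lie above ctrl points in a row and the marker shape gives the batch. Lamp1 in CIN 4 lies furthest to the right and Atg10 in CIN 4 furthest to the left, while the points of ref(2)P part by genotype.

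In the initiation complex, 3 of 4 genes had positive log2 fold changes and the median was 0.06. Atg1, the kinase, measured 91.5, 114 and 110 CPM in CIN 4, 5 and 6, against 93.3, 99.1 and 103 CPM in ctrl 4, 5 and 6. Atg17, the scaffold related to mammalian FIP200, measured 57.6, 67.4 and 57.7 CPM in CIN, against 56.6, 48.8 and 53.1 CPM in ctrl. The lowest CIN value of Atg17 exceeded the highest ctrl value by little, and the log2 fold change was 0.20 ± 0.12 (SE; edgeR, adjusted p = 0.703), or 0.12 without CIN 5. Its difference was largest in batch 5, at 0.46, against 0.03 and 0.12 in batches 4 and 6. Atg13, the adaptor of the kinase, and Atg101, which stabilises Atg13, had log2 fold changes of 0.03 ± 0.12 and -0.06 ± 0.12.

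In the lipid kinase complex the differences were small. Pi3K59F, the catalytic subunit known as Vps34, measured 39.9, 31.6 and 33.7 CPM in CIN 4, 5 and 6, against 37.6, 32.2 and 36.6 CPM in ctrl 4, 5 and 6. The log2 fold change was -0.16 ± 0.14 (SE) for Atg6, the Beclin 1 counterpart, and -0.0012 ± 0.17 for Atg14, which directs the kinase to autophagosomes. Uvrag, which takes the place of Atg14 in the endosomal form of the complex, was the steadiest of the 4, with 21.6, 21.6 and 21.8 CPM in CIN and 21.2, 20.3 and 22.2 CPM in ctrl. The median of the 4 was -0.0093, with 1 positive and 3 negative. In batch 4 all 4 were positive and in batch 6 all 4 were negative.

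The genes for lipid supply and for reading the lipid mark had the highest median among the core roles, 0.17, with 3 of 4 positive. Atg2, which transfers lipids to the growing membrane, measured 85.1, 75.4 and 69.5 CPM in CIN 4, 5 and 6, against 69.0, 65.5 and 63.3 CPM in ctrl 4, 5 and 6. Its groups did not overlap, although CIN 6 stood only just above ctrl 4, and its log2 fold change was 0.22 ± 0.11 (SE; edgeR, adjusted p = 0.683), or 0.13 without CIN 4. Atg18b, a propeller protein of the WIPI type that binds the lipid mark, measured 21.9, 21.9 and 23.0 CPM in CIN, against 19.0, 17.9 and 19.5 CPM in ctrl. The difference was alike in the batches, at 0.20, 0.30 and 0.23 in batches 4, 5 and 6, and the log2 fold change came to 0.25 ± 0.12 (adjusted p = 0.668, edgeR). Its more abundant paralog Atg18a measured 78.5, 78.6 and 75.9 CPM in CIN, against 66.9, 77.4 and 69.7 CPM in ctrl, and the groups overlapped. Atg9, the membrane protein of the vesicles that seed the autophagosome, had a log2 fold change of -0.08 ± 0.11.

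The 5 tested genes that process and attach Atg8 all had positive log2 fold changes, from 0.03 to 0.19 with a median of 0.04. Atg8a itself measured 300, 269 and 268 CPM in CIN 4, 5 and 6, against 227, 252 and 255 CPM in ctrl 4, 5 and 6. The groups did not overlap, and the log2 fold change was 0.19 ± 0.12 (SE; edgeR, adjusted p = 0.709), with 0.40 in batch 4 and 0.09 and 0.07 in batches 5 and 6. Atg3, the enzyme that hands Atg8 to the lipid, was the steadiest of the 29, with 91.4, 92.5 and 94.9 CPM in CIN and 89.8, 88.8 and 92.4 CPM in ctrl. The proteases Atg4a and Atg4b, which trim and recycle Atg8, had log2 fold changes of 0.15 ± 0.10 and 0.04 ± 0.13, and Atg7, the activating enzyme of both conjugation systems, 0.03 ± 0.17. Atg4a shares 51.4% of its exon length with CG4629 on the opposite strand. Without strand in the library kit, its counts may include reads of that gene or lack reads of the shared part.

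The genes of the Atg12 system had a median of -0.02, with 2 positive and 2 negative. Atg5 varied most within the groups, with 28.2, 42.6 and 29.4 CPM in CIN 4, 5 and 6 and 25.3, 36.6 and 34.9 CPM in ctrl 4, 5 and 6. Atg12, the modifier joined to Atg5, and Atg16, which holds that pair at the membrane, had log2 fold changes of -0.06 ± 0.17 and 0.0078 ± 0.12 (SE). Atg10, the enzyme that joins Atg12 to Atg5, was the 1 member lower in CIN in all 3 batches, with 3.43, 4.87 and 4.40 CPM in CIN against 4.34, 5.19 and 6.31 CPM in ctrl. Its log2 fold change of -0.32 ± 0.27 had a 95% interval from -0.97 to 0.33 (edgeR, adjusted p = 0.781), and the groups overlapped. It was -0.19 without CIN 4 and -0.17 without ctrl 6. Atg10 shares 50.1% of its exon length with the tested genes CG12822 and Dgk. Its counts may include theirs or lack reads of the shared part, since the counting settings were not given. In all, 9 of the 30 genes share exon sequence with a tested gene.

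The cargo receptor gene ref(2)P, at 2L:19542468-19545548 on the forward strand in dm6 coordinates, had the largest positive log2 fold change of the 29. It measured 178, 156 and 156 CPM in CIN 4, 5 and 6, against 120, 131 and 127 CPM in ctrl 4, 5 and 6. Every CIN library lay above every ctrl library, and the difference was larger than the spread within either group, with means of 164 ± 12.6 CPM in CIN and 126 ± 5.47 CPM in ctrl. The log2 fold change was 0.38 ± 0.11 (SE), a 1.30-fold difference with a 95% interval from 1.09 to 1.55. It did not pass the adjusted test (edgeR, unadjusted p = 0.00932, adjusted p = 0.514; DESeq2, adjusted p = 0.0835), and by unadjusted p it ranked 182 among the tested genes. The difference was positive in each batch, at 0.57, 0.26 and 0.30 in batches 4, 5 and 6, and the log2 fold change was 0.31 without CIN 4. Without both CIN 4 and ctrl 5 it was 0.34, and without both ctrl 4 and CIN 5 it was 0.37. The fat body and salivary gland sums also parted all CIN from all ctrl libraries. The part of neighbouring tissue in the ref(2)P difference was not tested.

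Exons of ref(2)P overlap those of CG10337 on the opposite strand over 7.22% of their length. CG10337 measured 32.1, 2.93 and 19.0 CPM in CIN 4, 5 and 6, against 2.89, 45.4 and 16.5 CPM in ctrl 4, 5 and 6. Within batches 4, 5 and 6 its log2 CPM differed by 3.44, -3.92 and 0.20 (CIN minus ctrl), against 0.57, 0.26 and 0.30 for ref(2)P. For both genes the value was highest in batch 4 and lowest in batch 5. The part of CG10337 reads in the counts of ref(2)P was not tested.

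**Figure D3:**
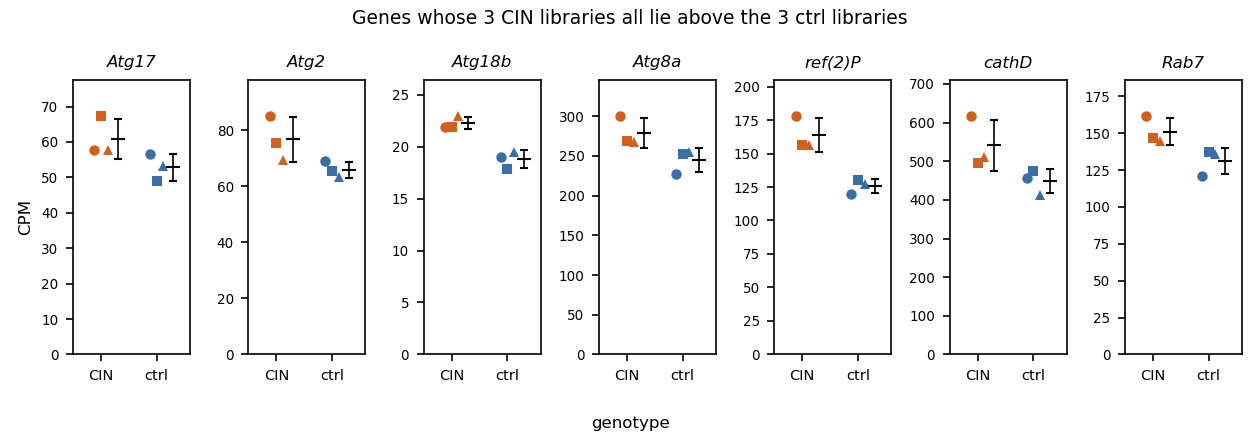
CPM in each library of the 7 genes whose CIN libraries all lie above the ctrl libraries, with axes from 0; circles, squares and triangles are batches 4, 5 and 6, and the bars give the mean and SD of 3 libraries. The gap between the groups is widest for ref(2)P, with 156 CPM in the lowest CIN library and 131 CPM in the highest ctrl library.

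Of the 7 lysosomal genes, 6 had positive log2 fold changes and the median was 0.15, but the differences were unlike in the 3 pairs of libraries. In batch 4 all 7 were higher in CIN with a median of 0.42, in batch 5 there were 2 higher with a median of -0.20, and in batch 6 there were 5 higher with a median of 0.02. Without CIN 4 the median log2 fold change of the 7 was -0.02. All tested genes had medians of -0.00014, -0.01 and -0.0060 in these batches. Lamp1 measured 473, 254 and 281 CPM in CIN 4, 5 and 6, against 246, 292 and 278 CPM in ctrl 4, 5 and 6. Only CIN 4 stood apart for Lamp1, and the log2 fold change of 0.31 ± 0.25 (SE; edgeR, adjusted p = 0.767) became -0.02 without that library.

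The cysteine proteases had the same shape. CtsL1 measured 365, 232 and 263 CPM in CIN 4, 5 and 6, against 274, 287 and 274 CPM in ctrl 4, 5 and 6, and CtsB measured 233, 169 and 168 CPM in CIN against 174, 205 and 164 CPM in ctrl. CIN 4 was the highest library of both and the groups overlapped. Without CIN 4 their log2 fold changes turned to -0.17 and -0.11, against 0.04 ± 0.18 and 0.07 ± 0.17 with all libraries. The gene spin, for the lysosomal transporter Spinster that restores lysosomes after fusion, measured 148, 147 and 146 CPM in CIN and 130, 172 and 155 CPM in ctrl. Its CIN libraries were nearly equal and lay inside the range of ctrl.

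Both cathD and Rab7 were higher in CIN in each batch. The aspartic protease gene cathD measured 618, 494 and 512 CPM in CIN 4, 5 and 6, against 457, 474 and 414 CPM in ctrl 4, 5 and 6. Its groups did not overlap, and the log2 fold change was 0.27 ± 0.14 (SE; edgeR, adjusted p = 0.670), or 0.17 without CIN 4. Rab7, the GTPase of late endosomes that is needed for fusion, measured 162, 147 and 145 CPM in CIN, against 121, 137 and 136 CPM in ctrl, and its log2 fold change was 0.20 ± 0.11 (adjusted p = 0.686, edgeR). Mitf measured 59.4, 54.6 and 49.1 CPM in CIN and 42.6, 55.7 and 48.9 CPM in ctrl, and only batch 4 showed a difference, of 0.48.

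**Figure D4:**
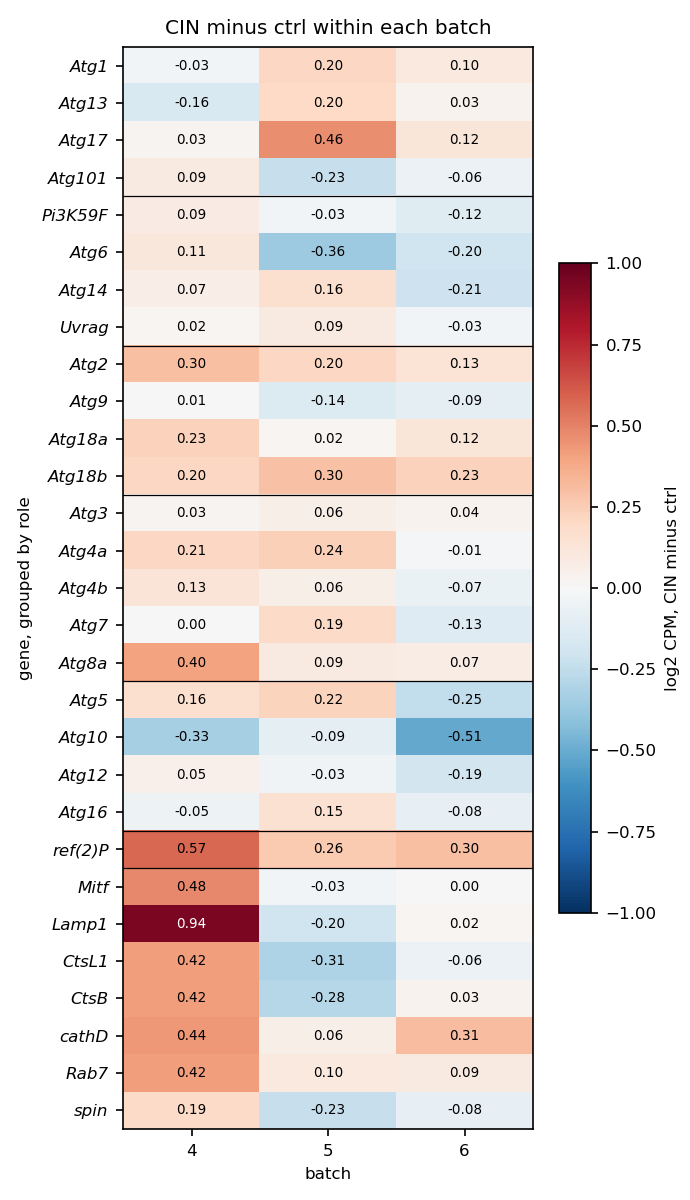
CIN minus ctrl of log2 CPM for each of the 29 tested genes in batches 4, 5 and 6, with red for higher in CIN and blue for lower in CIN. The lysosomal genes at the bottom are red in batch 4, with medians of 0.42, -0.20 and 0.02 across the batches, while ref(2)P is red in all 3.

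The mean of the lysosomal genes varied more between libraries than that of the core genes, but it averages fewer genes. Gene by gene the ranges overlapped, with within-group SDs of log2 CPM from 0.028 to 0.309 for tested core genes and from 0.094 to 0.351 for lysosomal genes. The mean log2 CPM of the 21 tested core genes was 5.21, 5.27 and 5.18 in CIN 4, 5 and 6, against 5.14, 5.19 and 5.23 in ctrl 4, 5 and 6. The mean of the 7 lysosomal genes was 7.85, 7.48 and 7.51 in CIN, against 7.38, 7.61 and 7.46 in ctrl. The lysosomal mean thus exceeded the core mean by 2.64 in CIN 4 and by 2.21 to 2.42 in the other 5 libraries. On average that excess was 2.39 ± 0.223 in CIN and 2.30 ± 0.105 in ctrl, a difference within the spread, with 0.40, -0.21 and 0.10 in batches 4, 5 and 6. For ref(2)P, the excess over the core mean was 2.26, 2.01 and 2.11 in CIN, against 1.77, 1.84 and 1.76 in ctrl, and the groups did not overlap.

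The summed CPM of the 7 lysosomal genes was 2058, 1497 and 1564 in CIN 4, 5 and 6, against 1444, 1623 and 1469 in ctrl 4, 5 and 6. CIN 4 and ctrl 5, its highest libraries, were also the highest in ring gland and hemocyte markers, and the part of these tissues in the result was not tested. Hml, a defining gene of larval hemocytes, measured 118, 26.1 and 4.44 CPM in CIN 4, 5 and 6, against 8.60, 239 and 30.8 CPM in ctrl 4, 5 and 6. Among the ring gland markers, phtm, a gene of ecdysone synthesis, measured 1531, 1.70 and 485 CPM in CIN, against 0.12, 1218 and 504 CPM in ctrl.

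**Figure D5:**
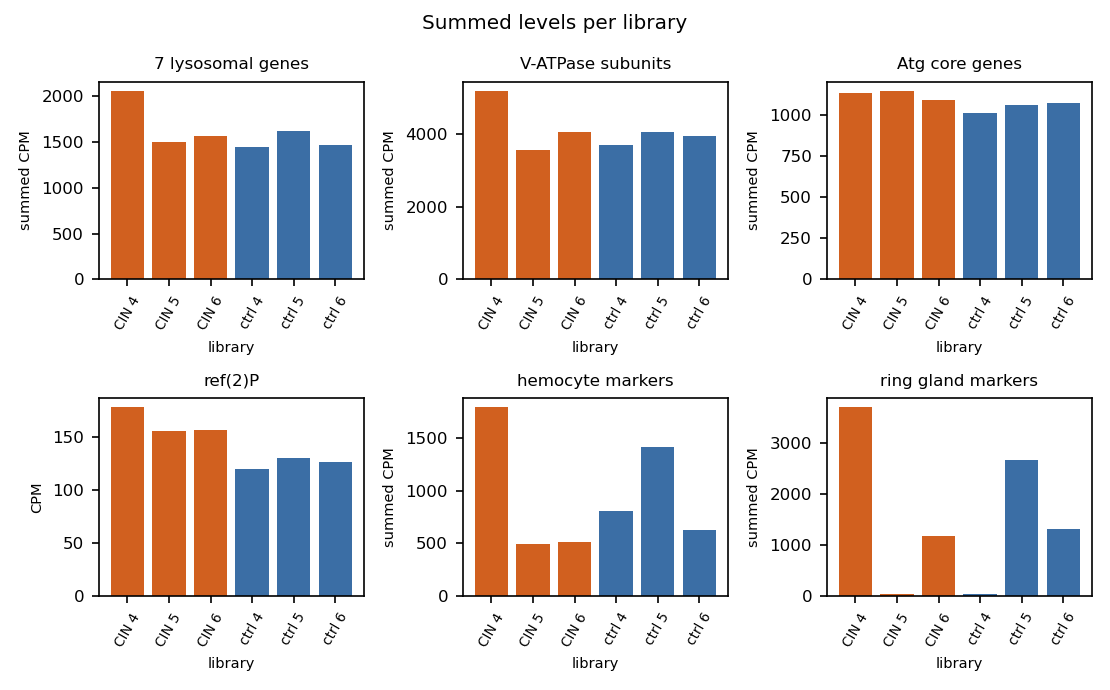
Summed CPM per library, with axes from 0, of the 7 lysosomal genes, the V-ATPase subunits, the core genes, ref(2)P, and the hemocyte and ring gland marker lists. CIN 4 is the highest library in the first and second panels and in both marker panels, while ref(2)P is higher in all 3 CIN libraries, at 156 to 178 CPM, than in the ctrl libraries, at 120 to 131 CPM.

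In the lists of other genes of the pathway, 0 of the 95 tested members passed edgeR's adjusted test or DESeq2. Of all tested genes, edgeR called 0.0496% higher and 0.0496% lower, and DESeq2 0.516% and 0.546%. At an unadjusted p below 0.05 in edgeR, 2 of the 95 were above ctrl and 1 below, against 4.13% and 3.76% of all tested genes. All CIN libraries lay above all ctrl libraries for 8 of the 95 and below them for 5, against 7.1% and 8.18% of all tested genes. The V-ATPase, the proton pump that acidifies the lysosome, had 14 of 17 tested subunits positive with a median of 0.12. Its differences were unlike in the batches too, with 15, 1 and 9 of 17 subunits higher in CIN in batches 4, 5 and 6 and medians of 0.47, -0.23 and 0.0012. Without CIN 4 the median log2 fold change of the subunits was -0.11. Vha16-1, a subunit of the membrane ring, measured 1440, 1080 and 1175 CPM in CIN 4, 5 and 6, against 1035, 1134 and 1109 CPM in ctrl 4, 5 and 6. The log2 fold changes of Vha26 and VhaM9.7-a were 0.15 ± 0.15 and -0.40 ± 0.22 (SE). Without CIN 4 that of Vha26 was 0.0024, and without ctrl 5 that of VhaM9.7-a was -0.21.

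Lysosomal enzymes and lipid handling genes had 10 of 16 tested members positive, a median of 0.09, and batch medians of 0.47, -0.23 and -0.01. Without CIN 4 their median log2 fold change was -0.12. Sap-r, the precursor of the saposins that aid lipid breakdown, measured 852, 719 and 594 CPM in CIN 4, 5 and 6, against 511, 634 and 522 CPM in ctrl 4, 5 and 6, with overlapping groups and a log2 fold change of 0.38 ± 0.17 (SE; edgeR, adjusted p = 0.662), or 0.24 without CIN 4. CtsF, a cysteine protease gene, did not overlap, with 326, 321 and 291 CPM in CIN against 288, 245 and 266 CPM in ctrl (log2 fold change 0.23 ± 0.12; edgeR, adjusted p = 0.674). Npc1a, a sterol transporter of the lysosome that was chosen after its values were seen, measured 433, 159 and 201 CPM in CIN, against 120, 400 and 244 CPM in ctrl.

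The fusion machinery had 10 of 13 members positive and a median of 0.03. In it Epg5, known in mammals as a tether for fusion of autophagosomes with lysosomes, measured 102, 96.3 and 84.6 CPM in CIN 4, 5 and 6, against 82.3, 70.5 and 73.9 CPM in ctrl 4, 5 and 6. The groups did not overlap and the log2 fold change was 0.32 ± 0.12 (SE; edgeR, unadjusted p = 0.033, adjusted p = 0.603). Vps11, a HOPS subunit, had -0.30 ± 0.15, and the abundant Rab2 and lt had 0.03 ± 0.12 and -0.09 ± 0.17.

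The ESCRT and endosome list had 7 of 17 members positive and a median of -0.04. Its lowest unadjusted p belonged to Vps25, an ESCRT-II subunit, which measured 32.1, 28.9 and 30.5 CPM in CIN 4, 5 and 6, against 38.3, 52.1 and 38.1 CPM in ctrl 4, 5 and 6 (log2 fold change -0.49 ± 0.15, SE; edgeR, unadjusted p = 0.015, adjusted p = 0.578). Without ctrl 5 its log2 fold change was -0.33. Stam, an ESCRT-0 subunit, had 0.50 ± 0.20 (edgeR, unadjusted p = 0.0450, adjusted p = 0.610), with overlapping groups, and 0.26 without CIN 5, its highest library. Rab5 and ALiX, its most abundant members, had 0.23 ± 0.11 and 0.18 ± 0.10. In this list all CIN libraries lay above all ctrl libraries for 4 members, Rab5 and ALiX among them. For 3 members, Vps25 among them, all CIN libraries lay below.

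The 22 genes of the TORC1 and AMPK pathways, with their upstream regulators, had 14 positive members and a median of 0.07, or -0.02 without CIN 4. The TORC1 inhibitor genes scyl and chrb were the most abundant. The gene scyl measured 454, 509 and 424 CPM in CIN 4, 5 and 6, against 397, 320 and 402 CPM in ctrl 4, 5 and 6. Its groups did not overlap and its log2 fold change was 0.31 ± 0.14 (SE, adjusted p = 0.665 in edgeR). In this list scyl was the 1 gene with all CIN libraries above ctrl, against 7.1% of all tested genes. The gene S6k, chosen after its values were seen, was the 1 gene with them all below, against 8.18%. It measured 155, 144 and 137 CPM in CIN, against 169, 160 and 158 CPM in ctrl. The log2 fold change was 0.27 ± 0.18 for chrb and 0.27 ± 0.15 for raptor, a TORC1 subunit. With 1 library left out, chrb ran from 0.15 without CIN 5 to 0.41 without ctrl 6, and raptor from 0.17 without ctrl 5 to 0.43 without ctrl 4. The 10 accessory genes had 8 positive members and a median of 0.09, with bchs, known in fly neurons for the clearance of protein aggregates, at 0.29 ± 0.22, SH3PX1 at 0.27 ± 0.14 and Gyf at -0.11 ± 0.10. Of these, bchs had 0.07 without CIN 5 and 0.49 without CIN 4, and SH3PX1 had 0.18 without CIN 4. The CIN libraries of Gyf all lay below its ctrl libraries.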

How the data were processed

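The authors deposited 1 table of whole-number read counts per gene and library, not normalized. Trim Galore, STAR 2.7.10a, featureCounts and the dm6 build are named in the submitters' processing notes, without order or settings; the strand setting and annotation used were, in the sources used here, not given. Per the labels' protocols, an NEBNext Ultra II kit that does not mark strand made the libraries from poly(A) RNA.

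Symbols matched 14074 of the 14150 gene identifiers. Positions and exon lengths came from the Ensembl BDGP6 annotation, the assembly that dm6 names. CIN was set against ctrl in edgeR 4.0.16 under R 4.3.3 (filterByExpr, TMM, quasi-likelihood F test, two-sided) on genotype alone, with Benjamini-Hochberg adjustment over 10074 genes and a threshold of 0.05. SE is the log2 fold change over the square root of F, and 95% intervals use the median 6.92 degrees of freedom. Log2 CPM used a prior count of 2. The smallest exact permutation p for 3 against 3 libraries is 0.1, so none was run. In counts simulated from these libraries, the test recovered 25.3% of genes changed 2-fold and 83.3% of genes changed 4-fold, over 9914 genes. The changed genes were drawn at random from those that passed the filter. The median within-group SD of log2 CPM was 0.241 over all tested genes and 0.119 over the 29, so these rates need not hold for the members.

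The members and lists were chosen with earlier results of these data known, so lists are described by counts and medians and not tested. All 30 members are named; from each other list come the called genes, or else the 2 of lowest p, and the 2 most abundant. Batch numbers pair the libraries, since the replicates came from different days; deviations of same-numbered libraries correlated at 0.038, -0.062 and 0.175 in batches 4, 5 and 6. Since each library pools brains, p-values rest on the spread among such pools. Other settings were RLE, no TMM, no filter, 1 CPM in 3 libraries, DESeq2 1.42.0, limma-voom 3.58.1, the batch block and left-out libraries.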

Additional observations from a re-analysis of the deposited data

How the results depend on the processing

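No tested member was called under any of the 15 other settings, and 16 of the 29 kept the sign of their log2 fold change in all of them. The gene ref(2)P stayed at an unadjusted p under 0.05 in each, with log2 fold changes from 0.31 to 0.42, unadjusted p from 0.00115 to 0.0465 and adjusted p from 0.0835 to 0.858; cathD joined it under DESeq2, making 2. Across all genes, DESeq2 called 52 higher and 55 lower, the 1 CPM filter 10 lower, and the replicate block 0 higher and 0 lower; with libraries left out, the counts ran from 0 to 4 higher and from 1 to 3 lower.

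Signs of small differences depended on single libraries, and the cause was not tested. With 1 library or a named pair left out, log2 fold changes ran from -0.0075 to 0.19 for Atg1, -0.073 to 0.11 for Atg13, -0.19 to 0.094 for Pi3K59F, -0.24 to 0.13 for Atg14, -0.0064 to 0.062 for Uvrag, -0.078 to 0.10 for Atg4b, -0.24 to 0.20 for Atg7, -0.31 to 0.25 for Atg5, -0.087 to 0.058 for Atg16, -0.022 to 0.47 for Lamp1, -0.17 to 0.17 for CtsL1, -0.11 to 0.16 for CtsB, -0.16 to 0.045 for spin, -0.069 to 0.11 for Rab2 and -0.32 to 0.092 for lt. Lamp1 turned negative without CIN 4, and CtsL1 and CtsB without CIN 4 and without both CIN 4 and ctrl 5. With library totals in place of TMM, Pi3K59F had 0.015 and Atg14 0.028; Atg14 also had 0.00413 with RLE, 0.00286 with the 1 CPM filter, 0.00404 with DESeq2, 0.0055 with limma-voom and 0.0067 with the replicate block. Library totals moved the median of all tested genes to 0.05.

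With libraries left out, the median of the Atg8 conjugation genes ran from 0.038 to 0.15. It ran from -0.20 to 0.00595 for the Atg12 conjugation genes and from -0.019 to 0.12 for the TORC1 and AMPK pathway genes. The last was 0.11 with library totals, 0.041 with limma-voom and 0.041 with the replicate block. Atg8b, at 0.36, 0.32 and 0.55 CPM in CIN and 0.48, 0.16 and 0.08 CPM in ctrl, had too few counts at this depth for a test.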
